A study of Mus musculus with 28 samples.

Results

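The collagen genes of the mouse were followed through the histone marks and receptor binding sites of IDG-SW3 cells. They were taken from the annotation as the protein-coding genes whose symbol has the form of a numbered collagen chain, such as Col1a1, without regard to any measured value. The rule found 43 genes of 22367 protein-coding genes. IDG-SW3 is an immortalised mouse bone cell line that grows as late osteoblasts with interferon gamma at a permissive temperature, and matures into osteocyte-like cells at body temperature without it. The medium then holds ascorbic acid, which collagen hydroxylation needs, and β-glycerol phosphate, and the plates were coated with collagen IV. GFP under the control of a Dmp1 promoter is also present in the line. It is 1 immortalised line, and all groups share the same growth, coating and medium. Chromatin immunoprecipitation with sequencing (ChIP-seq) had been done at day 35 for VDR, the receptor of vitamin D, and for RXR (retinoid X receptor), which pairs with it, in cells given vitamin D hormone, 1,25(OH)2D3 at 100 nM (written 1,25D3), or vehicle for 3 h, with 2 biological replicates per arm. It had also been done for 9 histone marks in untreated cells at day 35 and at day 3 of differentiation, with 1 library per mark and day.

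Collagens are trimers of chains wound into a triple helix. Fibrillar collagens, chiefly type I in bone, build the fibres that become mineralised. Other classes sit on the surface of fibrils, form networks in basement membranes, form beaded filaments around cells, or span the cell membrane. Osteoblasts secrete type I collagen in bulk as osteoid, and an osteocyte is an osteoblast that has become buried in it. Of the marks, H3K27Ac, H3K9Ac and H4K5Ac are acetylations found at active promoters and enhancers and, at highly transcribed genes, over the gene body. H3K4me3 marks promoters, H3K4me1 and H3K4me2 mark enhancers and promoter flanks, H3K36me3 lies over the bodies of transcribed genes, H4K20me1 is found over many of the same bodies, and H3K9me3 is the mark of silent heterochromatin.

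The files hold called regions with a score from the authors, not reads, and the sources used here do not give read depth. Histone lists held 9360 to 100123 regions and receptor lists 291 to 10333. Each histone value below is a coverage, the percent of bases lying under called regions in a window of the gene body and its 5 kb flanks. With 1 library per mark and day there is no replicate check of any difference between days, so such differences carry no error and no test. In total, H3K27Ac regions covered 270 Mb at day 35, against 226 Mb at day 3. H4K5Ac covered 335 Mb at day 35, against 297 Mb at day 3, and H3K9me3 covered 74.8 Mb at day 35, against 48.0 Mb at day 3. H3K27Ac coverage of 7 osteoblast markers had a median of 88.0% at day 35 and 64.9% at day 3. They ranged from 29.4% for Bglap to 100% for Sp7 and Sparc at day 35, and from 6.00% for Ibsp to 100% for Sp7 and Sparc at day 3. The 6 osteocyte markers were lower, with a median of 35.6% at day 35 and 22.4% at day 3. They ranged from 4.92% for Fgf23 to 71.8% for Dmp1 at day 35. At day 3 they ranged from 6.56% for Sost to 58.5% for Dmp1. Dmp1 was also covered by H3K4me3 at 45.6% at day 35 and 45.3% at day 3. By H3K9me3 it was covered at 45.3% at day 35 and 46.0% at day 3. The line also carries a Dmp1 promoter with GFP, and its part in the Dmp1 values was not tested, so these may not be those of the native gene alone. Sost, Phex and Fgf23 lay between 4.92% and 12.9% on both days. The 4 markers of each other lineage were also lower in the median than the osteoblast markers. Adipocyte markers had a median of 24.4% (range 14.9% to 75.9%, the highest Cebpa) at day 35 and 22.0% (2.33% to 41.5%) at day 3. Neural markers had 15.1% (0% to 36.1%, the highest Tubb3) at day 35 and 14.6% (0% to 37.0%) at day 3, endothelial markers 3.99% (0% to 10.7%) at day 35 and 4.21% (0% to 13.0%) at day 3, and muscle markers 2.21% (0% to 6.14%) at day 35 and 5.01% (0% to 11.8%) at day 3. Among these, Cdh5, Myod1 and Sox2 were at 0% on both days. Markers of chondrocytes, the cartilage cells that make collagen types II, IX, X and XI, had a median H3K27Ac coverage of 9.70% at day 35 and 13.9% at day 3 over 8 genes. They ranged from 0% for Matn1 to 62.2% for Comp at day 35 and from 0% for Acan to 57.3% for Sox9 at day 3.

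The collagen genes ranged from 0% to 100% in H3K27Ac coverage at both days, with values in between, and 50% was taken as a fixed level. At day 35, H3K27Ac covered over 50% of the window of 18 of the 43 genes, where 16.5% of all protein-coding genes passed that level. At day 3 it did so for 12 collagen genes, where 11.2% of all genes did. The genes over 50% at day 35 and not at day 3 were Col4a2, Col5a3, Col6a2, Col6a3, Col11a1 and Col14a1, and Col4a2, Col5a3 and Col14a1 lay within 1 point of the limit. The median over all 43 genes was 19.2% at day 35 and 18.2% at day 3, while the median over all genes was 11.7% at day 35 and 11.5% at day 3. The median of the differences was 2.42 points for the collagen genes and 0 for all genes. Collagen genes are long, with a median body of 114 kb against 15.4 kb for all genes, so genes of at least 20 kb were set beside them as well. Their median body was 49.9 kb, so they are closer in length to the collagen genes but not matched to them. Those had a median difference of 0.206 points.

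An acetylation gain was counted where H3K27Ac was over 10 points higher at day 35 and H3K9Ac and H4K5Ac were higher too. That held for 11 collagen genes (25.6%), where 11.5% of all protein-coding genes met it. Of genes of at least 20 kb, 13.5% met it, and 10 of the 39 collagen genes of that length. The 11 genes were Col5a1, Col5a2, Col6a1, Col8a1, Col11a1, Col11a2, Col13a1, Col15a1, Col16a1, Col20a1 and Col24a1. The reverse held for Col9a3 alone among the collagen genes, where 4.12% of all genes met it. With the threshold set at 20 points in place of 10, 6 genes met the rule for a gain (6.06% of all genes) and none that for a loss (1.28% of all genes). H3K27Ac alone was over 10 points higher in 17 collagen genes (17.8% of all genes) and over 10 points lower in 2, Col9a3 and Col10a1 (5.83% of all genes). The whole window of Col10a1 lies within another gene, Nt5dc1, so its difference cannot be read as its own.

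**Figure D1:**
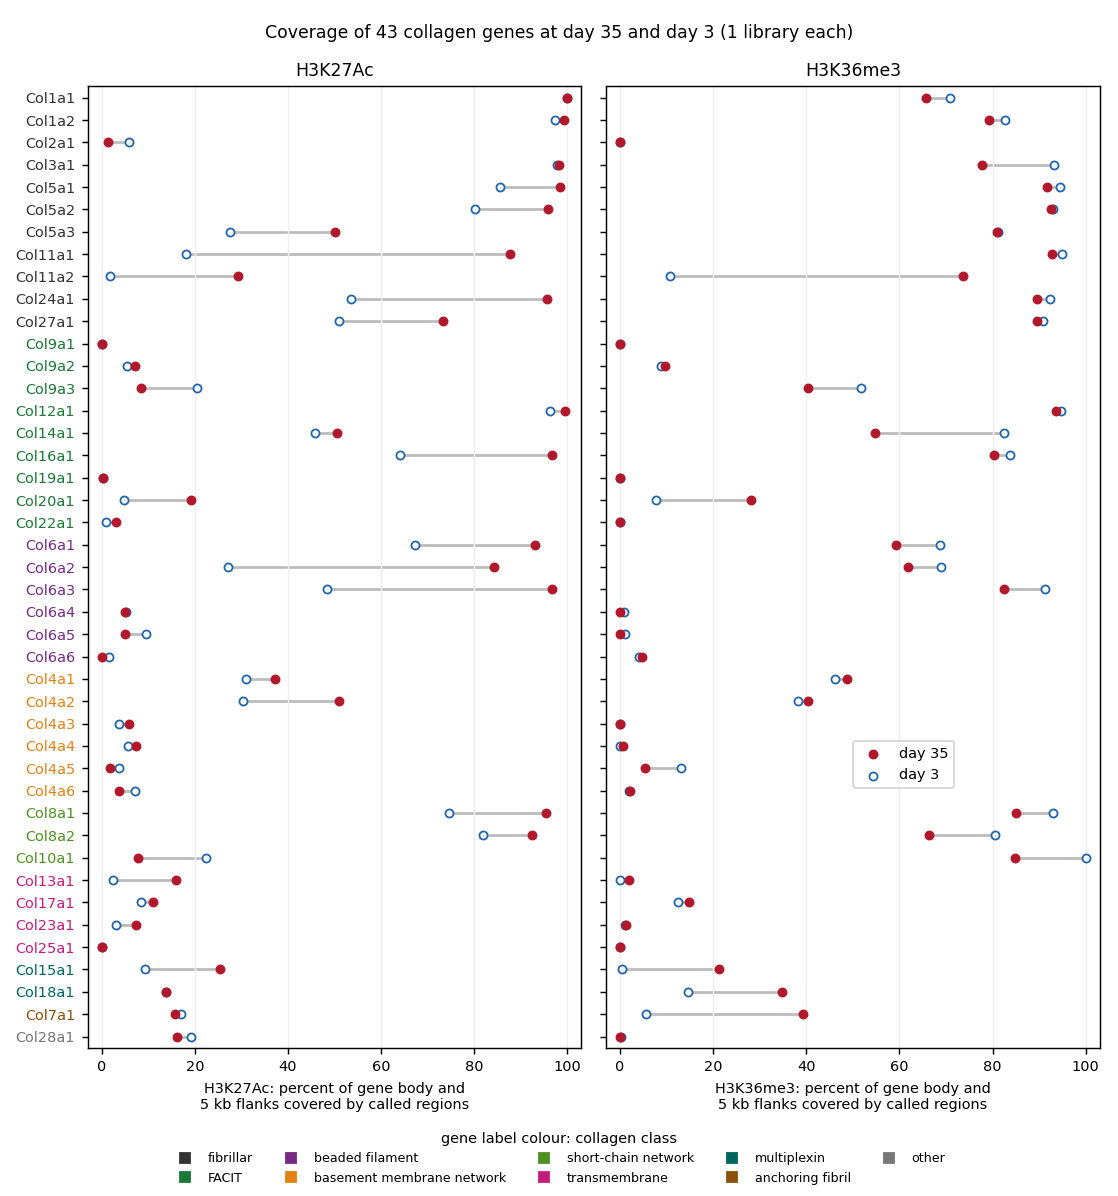
Percent of each collagen gene's window (body and 5 kb flanks) covered by H3K27Ac (left) and H3K36me3 (right) regions, at day 35 (filled red) and day 3 (open blue), 1 library each, with gene names coloured by collagen class. Fibrillar genes other than Col2a1 and Col11a2 reach 50.1% to 100% H3K27Ac at day 35, Col11a1 has the widest gap (87.6% at day 35 and 18.2% at day 3), and Col11a2 the widest gap in H3K36me3 (73.7% at day 35 and 10.7% at day 3).

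Among the fibrillar genes, the major chains of bone were already covered at day 3, and the chains of minor fibrils had more coverage at day 35. Col1a1 and Col1a2 encode the chains of type I collagen. Col1a1 (chr11:94797538-94814356, NCBIM37/mm9, plus strand) was covered at 100% by H3K27Ac, H4K5Ac and H3K9Ac at both days, so no gain could be seen by this measure. Col1a2 was at 99.3% at day 35 and 97.4% at day 3 for H3K27Ac, and at 90.9% at day 35 and 89.8% at day 3 for H3K9Ac. In the day 35 list of H3K9Ac, the region over Col1a2 ranked 8 and that over Col1a1 ranked 9 of 56355 by the authors' score. In the day 3 list Col1a2 ranked 15 and Col1a1 ranked 19 of 51466, and ranks in lists of different length show no change. Col3a1, the chain of type III collagen that mixes with type I in soft tissue, was at 98.1% at day 35 and 97.8% at day 3 for H3K27Ac. Its H3K9Ac coverage was 75.1% at day 35 and 61.0% at day 3, while its H3K4me1 was 86.9% at day 35 and 97.7% at day 3.

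Types V and XI are minor fibrillar collagens that sit inside larger fibrils and set their diameter. Col5a1 was at 98.5% at day 35 and 85.5% at day 3 for H3K27Ac, at 87.5% at day 35 and 52.0% at day 3 for H4K5Ac, at 47.1% at day 35 and 16.7% at day 3 for H3K9Ac and at 79.7% at day 35 and 49.1% at day 3 for H3K4me1. It was the collagen gene with the largest difference in H3K9Ac and in H3K4me1. Col5a2, the neighbour of Col3a1 on chromosome 1, was at 95.9% at day 35 and 80.2% at day 3 for H3K27Ac, and 1 region of 136 kb at day 35 reached over both genes. Col5a3 stood at 50.1% at day 35 and 27.6% at day 3, with H3K9Ac lower at day 35 (9.66%) than at day 3 (11.1%), so it did not meet the rule.

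Col11a1, which encodes a type XI chain best known from cartilage, had the largest H3K27Ac difference of all 43 genes. Its window (gene at chr3:113733458-113923636, NCBIM37/mm9, plus strand) was covered at 87.6% at day 35 and 18.2% at day 3. The difference lay along the body rather than at the promoter. When the body was cut into 10 equal parts from start to end, part 1 was covered at 89.2% at day 35 and 41.2% at day 3, part 5 at 100% at day 35 and 14.2% at day 3, and part 6 at 100% at day 35 and 2.63% at day 3. H4K5Ac was 71.6% at day 35 and 34.1% at day 3, and H4K20me1 was 93.0% at day 35 and 44.2% at day 3. H3K9Ac differed little, at 8.20% at day 35 and 7.15% at day 3, and with only the higher-scoring 50% of each list the gene did not meet the acetylation rule. Its H3K36me3 was high at both days, at 92.8% at day 35 and 95.0% at day 3. The H3K36me3 region over this gene, 168 kb wide, ranked 2 of 27961 by the authors' score at day 35. At day 3 a region of 190 kb ranked 7 of 32560.

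Col11a2 (chr17:34176382-34203630, NCBIM37/mm9, plus strand), the partner chain of Col11a1, was different in its H3K36me3. H3K36me3 covered 73.7% of its window at day 35 and 10.7% at day 3. The window takes in part of Rxrb, a gene for an RXR, just upstream, and outside Rxrb the values were 70.6% at day 35 and 0.117% at day 3. In parts 3 to 9 of the body, H3K36me3 coverage was 100% at day 35 and 0% at day 3. H3K27Ac was 29.2% at day 35 and 1.89% at day 3, H4K5Ac 25.4% at day 35 and 5.22% at day 3, and H3K9Ac 15.8% at day 35 and 0.642% at day 3. No H3K4me3 region lay within 1 kb of its annotated start at either day. Col11a2 had the largest H3K36me3 difference of the 43 genes.

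Col24a1 and Col27a1 encode further fibrillar chains, of which type XXIV is known from developing bone. Col24a1 (chr3:144955436-145214975, NCBIM37/mm9, plus strand) was at 95.6% at day 35 and 53.5% at day 3 for H3K27Ac, and at 99.1% at day 35 and 84.5% at day 3 for H4K5Ac. A single H4K5Ac region of 270 kb covered 97.5% of its body at day 35 and ranked 7 of 72819. At day 3 the gene held separate regions, the highest of them 93.5 kb wide at rank 38 of 68494. Part 1 of its body was covered by H3K27Ac at 100% at day 35 and 24.4% at day 3, and part 8 at 100% at day 35 and 79.5% at day 3. Col27a1 was at 73.3% at day 35 and 50.9% at day 3 for H3K27Ac but at 23.3% at day 35 and 24.6% at day 3 for H3K9Ac. Col2a1, the main chain of cartilage, was at 1.28% at day 35 and 5.86% at day 3 for H3K27Ac, with 0% H3K36me3 at both days. It was the fibrillar gene with the most H3K9me3, 15.9% at day 35 and 38.6% at day 3. The day 3 value was the highest H3K9me3 coverage of any collagen gene.

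**Figure D2:**
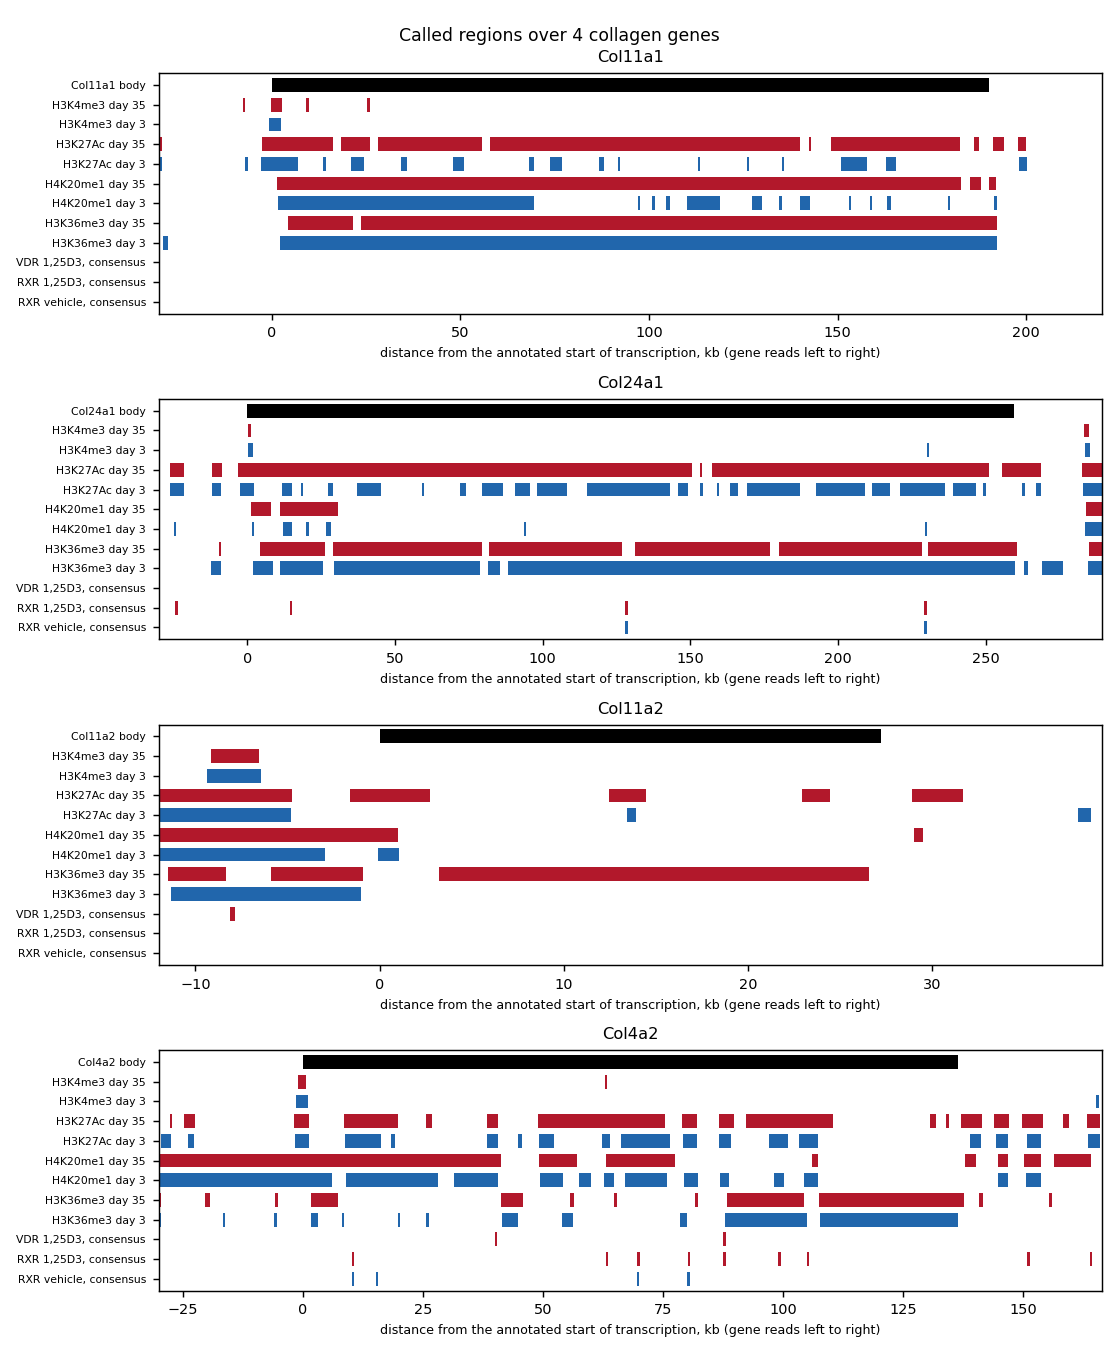
Called regions over Col11a1, Col24a1, Col11a2 and Col4a2, against the distance in kb from the annotated start of transcription, with histone regions at day 35 and 1,25D3 sites in red, day 3 and vehicle in blue, and the gene body in black. Across Col11a1 and Col24a1 the day 35 H3K27Ac regions run nearly unbroken where day 3 has separate regions, Col11a2 has a day 35 H3K36me3 region over its body with none at day 3, and Col4a2 holds most of the RXR sites.

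The promoters of 3 of these collagen genes are shown because they differ in the mark and in the letters they hold. Each line is the 150 bases before the annotated start, 5′ to 3′ on the gene's strand, read from NCBIM37/mm9. Capitals mark CCAAT on either strand (its reverse complement reads ATTGG) or TATAAA on the gene's strand. Col1a1 and Col11a1 had an H3K4me3 region within 1 kb of an annotated start at both days, and Col10a1, the type X chain of hypertrophic cartilage, had none.
Col1a1 (chr11:94797388-94797537, plus strand): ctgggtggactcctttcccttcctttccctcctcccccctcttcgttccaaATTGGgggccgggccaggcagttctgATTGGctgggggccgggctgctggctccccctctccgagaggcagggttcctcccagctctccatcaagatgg
Col11a1 (chr3:113733308-113733457, plus strand): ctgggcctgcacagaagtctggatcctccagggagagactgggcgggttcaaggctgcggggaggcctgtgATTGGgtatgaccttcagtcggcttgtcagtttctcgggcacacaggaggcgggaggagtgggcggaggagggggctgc
Col10a1 (chr10:34109637-34109786, plus strand): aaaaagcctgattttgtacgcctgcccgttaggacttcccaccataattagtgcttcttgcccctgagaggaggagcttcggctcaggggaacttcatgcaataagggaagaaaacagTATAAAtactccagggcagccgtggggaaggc
CCAAT on either strand was found in 11 of 43 collagen promoters (25.6%) and in 26.1% of all protein-coding promoters of that length. TATAAA was found in 3 (6.98%), those of Col3a1, Col10a1 and Col17a1, and in 5.65% of all. CCAAT was in 6 of the 19 collagen genes with H3K4me3 near a start at day 35 and in 5 of the 24 without. TATAAA was in 1 of the 19 and 2 of the 24, so the 3 printed promoters do not show a link of letters and mark. These matches describe letters, and no binding was measured. Over all collagen genes, 19 (44.2%) had an H3K4me3 region within 1 kb of a start at day 35, where 41.9% of all genes did, and 20 had one at day 3, where 47.1% did. Among genes of at least 20 kb the order was reversed at day 35, with 54.2% of all such genes and 17 of 39 such collagen genes (43.6%). At day 3 the share with such a region was also lower in the collagen genes of that length. Col13a1 had one at day 35 alone (0.760% of all genes), and Col4a5 and Col23a1 at day 3 alone (6.05% of all genes). H3K4me3 coverage was over 10 points higher at day 35 in 0 of the 43 genes (0.156% of all genes) and over 10 points lower in 0 (2.14% of all genes). Of genes of at least 20 kb, 0.185% were higher and 0.165% lower. The highest H3K4me3 coverage of any collagen gene was 13.4% at day 35 and 13.6% at day 3. A loss of over 10 points was therefore possible in few of them, and these counts do not show stable promoters.

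Type VI collagen forms beaded filaments in the matrix next to cells, from chains that include those encoded by Col6a1, Col6a2 and Col6a3. All 3 of these had more H3K27Ac at day 35, and the other chains of the class, Col6a4, Col6a5 and Col6a6, lay at 0% to 9.60% at either day. Col6a1 was at 93.1% at day 35 and 67.2% at day 3. Col6a2, its neighbour on chromosome 10, was at 84.3% at day 35 and 27.2% at day 3, and parts 5 to 10 of its body were covered at 100% at day 35 and 0% at day 3. Col6a3, on chromosome 1, was at 96.6% at day 35 and 48.4% at day 3. Col6a1 met the acetylation rule. In Col6a2 and Col6a3, H3K9Ac was lower at day 35, at 13.6% at day 35 and 16.6% at day 3 in Col6a2 and at 21.2% at day 35 and 22.7% at day 3 in Col6a3.

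FACIT collagens bind to the surface of fibrils. Among their 9 genes, Col9a1, Col9a2, Col9a3, Col19a1 and Col22a1 lay between 0% and 8.44% H3K27Ac at day 35. The median H3K27Ac over all protein-coding genes was 11.7% at day 35. Col12a1, which links fibrils under tension in tendon and bone, was at 99.5% at day 35 and 96.2% at day 3. Its H3K36me3 region at day 35, 122 kb wide, ranked 19 of 27961. At day 3 a region of 127 kb ranked 2 of 32560. Col16a1 was at 96.7% at day 35 and 64.0% at day 3 for H3K27Ac, at 75.3% at day 35 and 59.0% at day 3 for H4K5Ac and at 34.6% at day 35 and 25.5% at day 3 for H3K9Ac. Col20a1 met the acetylation rule at low levels, with H3K27Ac of 19.2% at day 35 and 4.70% at day 3 and H3K9Ac of 1.22% at day 35 and 0% at day 3. Col14a1, which like Col12a1 coats fibrils, was at 50.5% at day 35 and 45.7% at day 3 for H3K27Ac. Its H3K36me3 was 54.7% at day 35 and 82.4% at day 3, the most negative difference among the 43 genes, and its H3K4me1 was 47.0% at day 35 and 69.4% at day 3. Col9a3, a cartilage chain, was at 8.44% at day 35 and 20.5% at day 3 for H3K27Ac, 13.7% at day 35 and 21.3% at day 3 for H4K5Ac and 1.32% at day 35 and 10.7% at day 3 for H3K9Ac. Its partner Col9a1 had no H3K27Ac at either day.

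Short-chain network collagens differed among themselves. Col8a1 and Col8a2 encode type VIII collagen, found under endothelium and in the eye. Col8a1 was at 95.5% at day 35 and 74.6% at day 3 for H3K27Ac, and at 34.5% at day 35 and 28.3% at day 3 for H3K9Ac. Col8a2 was at 92.4% at day 35 and 81.9% at day 3 for H3K27Ac and at 65.7% at day 35 and 70.7% at day 3 for H3K9Ac. Col10a1 was at 7.83% at day 35 and 22.5% at day 3 for H3K27Ac. Its upstream flank was at 18.2% at day 35 and 60.2% at day 3, and its body at 6.01% at day 35 and 11.7% at day 3. Its H3K36me3 was 84.9% at day 35 and 100% at day 3. Neither mark can be read as its own, since its whole window lies within the gene Nt5dc1.

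The basement membrane chains were low apart from Col4a1 and Col4a2, the chains of the common type IV network, which are read from a shared promoter region on opposite strands. Col4a2 was at 50.9% at day 35 and 30.3% at day 3 for H3K27Ac, and at 63.8% at day 35 and 50.8% at day 3 for H4K5Ac. Col4a1 was at 37.2% at day 35 and 30.9% at day 3 for H3K27Ac. The other 4 type IV genes lay between 1.86% and 7.45% at either day. Col4a6, on chromosome X, had the largest positive difference in H3K9me3, with 22.7% at day 35 and 1.67% at day 3.

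Of the transmembrane and multiplexin genes, Col13a1 and Col15a1 met the acetylation rule at low coverage. Col13a1, a transmembrane collagen of adhesion sites, was at 16.0% at day 35 and 2.33% at day 3 for H3K27Ac. Col15a1, a basement membrane proteoglycan, was at 25.3% at day 35 and 9.33% at day 3 for H3K27Ac, 43.7% at day 35 and 15.5% at day 3 for H4K5Ac and 12.0% at day 35 and 3.37% at day 3 for H3K9Ac. Its relative Col18a1, whose C-terminal piece is endostatin, was at 13.8% at day 35 and 13.9% at day 3 for H3K27Ac.

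H3K36me3 was over 10 points higher at day 35 in 5 collagen genes (10.7% of all genes) and over 10 points lower in 5 (9.88% of all genes). The higher genes were Col7a1, Col11a2, Col15a1, Col18a1 and Col20a1, of which Col11a2, Col15a1 and Col20a1 also met the acetylation rule. Col7a1, the anchoring fibril chain of skin, was at 39.2% at day 35 and 5.48% at day 3, and parts 4 and 5 of its body were at 100% at day 35 and 0% at day 3. Col18a1 was at 34.7% at day 35 and 14.7% at day 3, with part 7 of its body at 53.7% at day 35 and 11.5% at day 3 and part 8 at 100% at day 35 and 32.2% at day 3. Col15a1 was at 21.2% at day 35 and 0.435% at day 3, and Col20a1 at 28.2% at day 35 and 7.67% at day 3. The lower genes were Col3a1 (77.7% at day 35 and 93.1% at day 3), Col8a2 (66.3% at day 35 and 80.5% at day 3), Col9a3 (40.3% at day 35 and 51.8% at day 3), Col10a1 and Col14a1. The count includes Col10a1, whose whole window lies within Nt5dc1, so its difference cannot be read as its own. In Col3a1 most of the difference lay in the flanks, at 0% at day 35 and 44.9% at day 3 upstream and at 43.0% at day 35 and 100% at day 3 downstream. Its body was at 92.4% at day 35 and 98.5% at day 3, and part 1 of the body at 24.5% at day 35 and 85.5% at day 3. Col3a1 did not pass 10 points when the body alone was measured. Over the 43 genes, the difference in H3K36me3 had a Pearson correlation of 0.05 with that in H3K27Ac, while H4K5Ac had 0.68 and H4K20me1 0.46. H3K9Ac had 0.23. Over all protein-coding genes the order of the first 3 was the same, with 0.14 for H3K36me3, 0.61 for H4K5Ac and 0.33 for H4K20me1. H3K9Ac had 0.45 over all genes. These correlations run across genes that share the same libraries, and they are descriptions.

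H4K20me1 was over 10 points higher at day 35 in 5 collagen genes, Col5a1, Col5a2, Col6a3, Col8a1 and Col11a1 (17.9% of all genes), and over 10 points lower in 5, Col3a1, Col6a2, Col14a1, Col16a1 and Col27a1 (6.16% of all genes). In Col5a1 it was 95.4% at day 35 and 76.2% at day 3, in Col3a1 17.7% at day 35 and 38.9% at day 3 and in Col27a1 33.5% at day 35 and 55.3% at day 3. H3K9me3 was at 0% in 24 collagen genes at day 35 and in 9 at day 3, where it was at 0% in 74.0% of all genes at day 35 and 63.9% at day 3. A longer window has more room for a region, so these shares are not matched for length. The median H3K9me3 at day 3 was 1.17% for collagen genes, 0.372% for genes of at least 20 kb and 0% for all genes. At day 35 it was 0% for each. H3K9me3 was over 10 points higher in Col4a6, Col9a1 and Col25a1 (4.20% of all genes) and over 10 points lower in Col2a1 and Col6a1 (4.18% of all genes).

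H4K5Ac was over 10 points higher at day 35 in 12 collagen genes (13.4% of all genes) and lower in 1, Col14a1 (6.68% of all genes). H3K9Ac was higher in 3, Col3a1, Col5a1 and Col11a2 (7.10% of all genes), and lower in 1, Col12a1 (3.65% of all genes). H3K4me1 was higher in 6 (8.06% of all genes) and lower in 6 (9.96% of all genes). H3K4me2 was higher in 4 (9.19% of all genes) and lower in Col1a2 (0.559% of all genes), which was at 75.0% at day 35 and 85.3% at day 3.

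**Figure D3:**
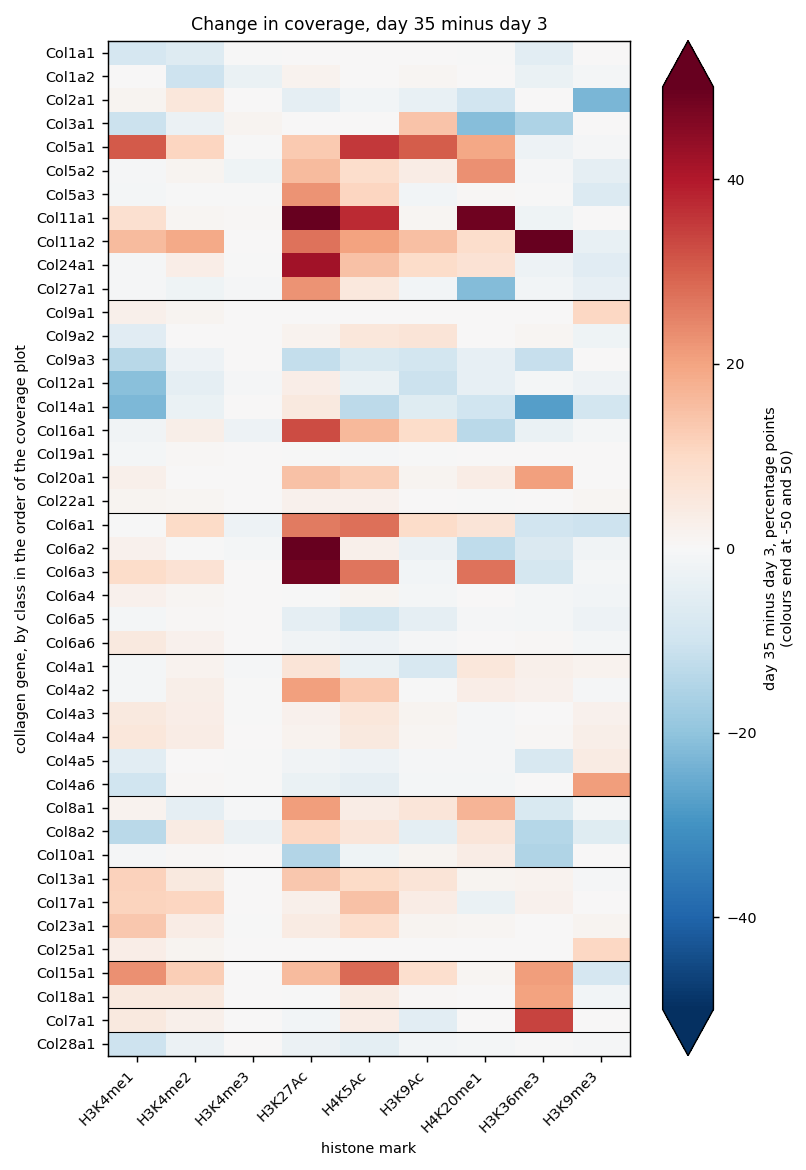
Coverage at day 35 minus coverage at day 3, in percentage points, for 43 collagen genes (rows, by class) and 9 histone marks (columns), with colours that reach their limit at 50 points in either direction. Red cells in the H3K27Ac and H4K5Ac columns fall mostly in fibrillar and type VI genes, and the H3K36me3 column has separate red cells at Col11a2, Col7a1, Col15a1, Col18a1 and Col20a1.

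Near the collagen genes, RXR sites were common and VDR sites few. A consensus site is one called in both replicates of an arm, and it was counted for a gene when within 50 kb of its body. With 1,25D3, 25 collagen genes had an RXR site (58.1%), where 31.9% of all protein-coding genes and 39.0% of genes of at least 20 kb did. With vehicle, 21 had one (48.8%), where 19.8% of all genes and 24.4% of genes of at least 20 kb did. Of the 39 collagen genes of at least 20 kb, 22 (56.4%) had one with 1,25D3 and 20 (51.3%) with vehicle. Their median body was 120 kb, against 49.9 kb for all genes of at least 20 kb. A longer gene has a wider window for a site, and neighbouring collagen genes can share a site, so these shares are not matched for length. VDR sites lay near 7 collagen genes with 1,25D3 (16.3%), where they lay near 11.6% of all genes and 12.3% of those of at least 20 kb. With vehicle they lay near 3 collagen genes (5.04% of all genes and 4.13% of those of at least 20 kb). Of the 39 collagen genes of at least 20 kb, 7 (17.9%) had a VDR site with 1,25D3 and 3 (7.69%) with vehicle. The 1,25D3-only VDR sites, which overlap no vehicle peak in either replicate, lay near 4 collagen genes (6.51% of all genes). Within 50 kb of the collagen genes there were 54 distinct RXR sites with 1,25D3, 30 with vehicle and 13 with 1,25D3 only, the last near 11 genes (9.19% of all genes). For VDR there were 8 with 1,25D3, 3 with vehicle and 4 with 1,25D3 only.

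Peaks were also counted per library in the 8.85 Mb within 50 kb of the collagen genes. VDR peaks numbered 9 and 8 with 1,25D3 (8.50 ± 0.707, SD, n = 2) and 3 and 4 with vehicle (3.50 ± 0.707, SD, n = 2), a ratio of 2.45. The replicates do not overlap between the arms. RXR peaks numbered 84 and 58 with 1,25D3 (71.0 ± 18.4, SD, n = 2) and 55 and 38 with vehicle (46.5 ± 12.0, SD, n = 2), a ratio of 1.53, which was 1.53 in each replicate pair. The lower 1,25D3 library (58) was above the higher vehicle library (55). For each factor p was 0.33 by an exact permutation test (two-sided), which with 2 libraries against 2 cannot go lower. The lists themselves were longer with the hormone, and the share of each list that fell near the collagen genes was 0.556% and 0.600% for VDR with 1,25D3 against 1.03% and 1.17% with vehicle, and 0.813% and 0.760% with 1,25D3 against 0.800% and 0.928% with vehicle for RXR. When each list was held to the same number of peaks, the VDR ratio turned to 0.667 and the RXR ratio was 1.03.

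**Figure D4:**
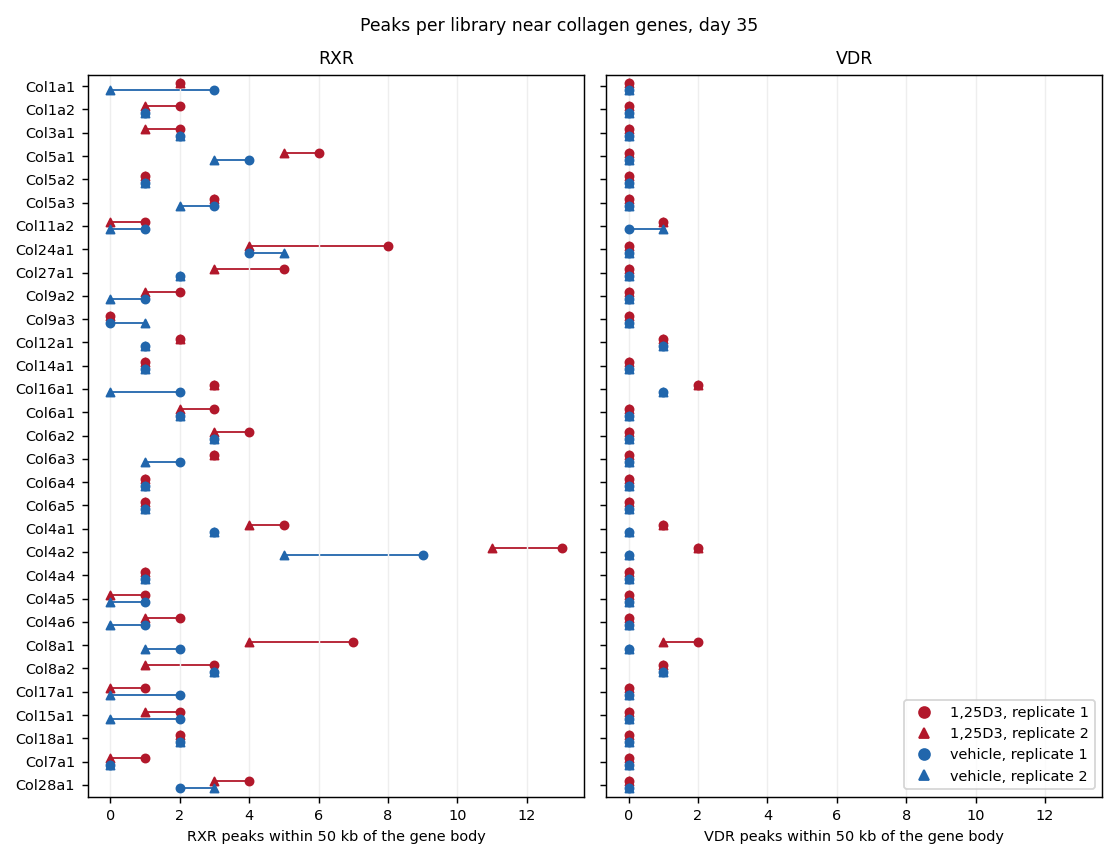
RXR (left) and VDR (right) peaks within 50 kb of each collagen gene that had a peak in any library, per library, with 1,25D3 in red and vehicle in blue, and circles and triangles for replicates 1 and 2. Col4a2 has 13 and 11 RXR peaks with 1,25D3 and 9 and 5 with vehicle, the most of any collagen gene, and VDR peaks were called near 7 genes.

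RXR sites were spread over the genes with high H3K27Ac. Of the 18 collagen genes over 50% H3K27Ac at day 35, 16 had an RXR site with 1,25D3, and Col1a2 and Col11a1 had none. Of the 25 at or under 50%, 9 had one. Over all protein-coding genes, 57.4% of those above that level and 26.9% of the others had one. Among genes of at least 20 kb, 67.6% of those above it and 34.6% of the others did. Col4a2 had 10 RXR sites with 1,25D3 and 5 with vehicle. Col5a1 had 4 with 1,25D3 and 3 with vehicle, Col8a1 had 4 with 1,25D3 and 1 with vehicle, and Col24a1 had 4 with 1,25D3 and 3 with vehicle. Several genes followed with 3, and among them Col16a1 had no consensus site with vehicle. It did have 2 RXR peaks in vehicle replicate 1, and only 1 of its 3 sites overlapped no vehicle peak. Col11a1, whose body is 190 kb long, had 0 RXR peaks in each of the 4 libraries. By the mean score over the 4 libraries, the highest RXR site within a collagen gene lay in an intron of Col14a1, with authors' scores of 25.7 and 23.8 with 1,25D3 and 31.0 and 17.3 with vehicle.

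The VDR sites divide by where they lie. In introns of Col8a1, Col16a1 and Col4a2 were 5 of the 8 sites, and the other 3 lay at the starts of neighbouring genes. Near Col8a1, a VDR site with RXR (scores of 14.7 and 19.0 with 1,25D3) had no vehicle peak. It lies 85.2 kb downstream of the start. Col16a1 held 2 intronic VDR sites. The first, with scores of 9.3 and 14.8, had RXR and no VDR peak with vehicle. The second, with 9.3 and 9.8 with 1,25D3 and 8.0 and 9.6 with vehicle, had no RXR. Col4a2 held 2 intronic 1,25D3-only VDR sites. The site with scores of 11.1 and 14.8 overlapped RXR, and the site with 9.5 and 8.0 did not and was also within 50 kb of Col4a1. The sites counted for Col8a2, Col12a1 and Col11a2 were at the starts of Adprhl2, Cox7a2 and Slc39a7, other genes, and each overlapped a VDR peak of at least 1 vehicle library. All 8 VDR sites overlapped H3K27Ac regions at both days. Of all 1218 VDR sites with 1,25D3, 1064 did at day 35 and 985 at day 3.

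The 4 sites called for VDR with 1,25D3 only are printed, each as the 200 bases at the centre of the site on the plus strand of NCBIM37/mm9. Capitals mark the VDR and RXR response element of the DR3 type (a pair of hexamers spaced by 3 bases, with at most 1 mismatch, on either strand) or, where there is none, the AP-1 site TGANTCA.
Col8a1 intron (chr16:57669597-57669796): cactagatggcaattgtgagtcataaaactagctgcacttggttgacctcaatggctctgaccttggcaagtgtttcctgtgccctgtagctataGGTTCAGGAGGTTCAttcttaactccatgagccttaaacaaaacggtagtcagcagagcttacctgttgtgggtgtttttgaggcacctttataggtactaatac
Col16a1 intron (chr4:129752362-129752561): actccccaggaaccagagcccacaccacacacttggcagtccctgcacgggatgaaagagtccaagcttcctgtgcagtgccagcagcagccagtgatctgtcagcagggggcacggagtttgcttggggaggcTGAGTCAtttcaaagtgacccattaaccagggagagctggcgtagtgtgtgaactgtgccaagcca
Col4a2 intron, with RXR (chr8:11400430-11400629): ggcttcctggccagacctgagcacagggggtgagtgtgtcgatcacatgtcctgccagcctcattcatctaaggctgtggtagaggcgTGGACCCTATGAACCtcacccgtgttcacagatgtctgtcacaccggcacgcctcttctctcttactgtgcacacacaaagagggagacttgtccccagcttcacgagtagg
Col4a2 intron, without RXR (chr8:11352843-11353042): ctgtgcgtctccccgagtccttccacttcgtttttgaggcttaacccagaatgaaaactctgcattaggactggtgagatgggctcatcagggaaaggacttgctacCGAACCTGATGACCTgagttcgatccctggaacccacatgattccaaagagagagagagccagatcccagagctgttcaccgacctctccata
The element in Col8a1 has no mismatch and reads along the plus strand. Both elements in Col4a2 have 1 mismatch and read along the minus strand, and the Col16a1 site holds no such element in this window. DR3 was found in 3 of these 4 sites. It was found in 51.5% of all 893 sites called with 1,25D3 only, in 40.1% of all 1218 VDR sites with 1,25D3, and in 4.27% of windows of the same length 2 kb away. Of RXR sites near collagen genes, 6 of 54 (11.1%) held DR3, where 746 of all 6783 RXR sites with 1,25D3 did.

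The AP-1 letters were in 27 of the 54 RXR sites near collagen genes (50.0%), where 35.7% of all RXR sites with 1,25D3 and 6.52% of windows 2 kb away held them. The difference from all RXR sites was not tested. A RUNX motif, TGTGGT on either strand, was in 16 of 54 (29.6%), where 32.4% of all did. The 2 RXR sites with the highest mean score among those inside collagen genes and called in all 4 libraries are printed in the same way, with TGANTCA in capitals. The first holds it and the second does not.
Col14a1 intron (chr15:55211696-55211895): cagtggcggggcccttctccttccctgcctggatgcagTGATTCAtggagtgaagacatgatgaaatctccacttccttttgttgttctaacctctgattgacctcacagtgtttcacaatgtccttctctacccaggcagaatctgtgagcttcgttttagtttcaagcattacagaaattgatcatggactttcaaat
Col4a2 intron (chr8:11323126-11323325): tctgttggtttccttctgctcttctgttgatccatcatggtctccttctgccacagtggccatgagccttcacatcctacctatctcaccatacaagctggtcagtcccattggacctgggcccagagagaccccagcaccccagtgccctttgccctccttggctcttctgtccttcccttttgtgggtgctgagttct
The site in Col4a2 had scores of 23.7 and 25.1 with 1,25D3 and 16.8 and 18.4 with vehicle, above the site in Col14a1 in replicate 2 of both arms. Of the 54 RXR sites near collagen genes, 53 overlapped an H3K27Ac region at day 35 and 53 at day 3. Of all 6783 RXR sites with 1,25D3, 6447 did at day 35 and 6127 at day 3, so the overlap is not particular to collagen genes. A match here says what letters are in the window and does not show that a factor binds them.

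Genes that build, read and break down collagen were set beside the chains, from lists written with earlier results of these data known. Of 32 genes for collagen modification and assembly, 9 met the acetylation rule (28.1%, where 11.5% of all protein-coding genes did) and none the reverse (4.12% of all genes). They were P4ha2, P4ha3 and P4hb (prolyl 4-hydroxylase subunits), Plod2 (a lysyl hydroxylase that sets the cross-links of bone), Lepre1 (a prolyl 3-hydroxylase), Creb3l1 (a transcription factor of the secretory load), Bmp1 (which removes the procollagen C-propeptide), and the lysyl oxidase relatives Loxl3 and Loxl4. P4ha3 was at 100% H3K27Ac at day 35 and 68.2% at day 3, and its H3K36me3 was 79.4% at day 35 and 0% at day 3. Plod2 was at 96.1% at day 35 and 62.1% at day 3 for H3K27Ac and had a 1,25D3-only VDR site. VDR sites with 1,25D3 lay near 9 of the 32, Plod2, Lepre1, P4ha1, Plod3, Glt25d1, Adamts2, Adamts14, Loxl1 and Loxl2 (11.6% of all genes had one). Of 7 receptor genes, Itga10 and Itga11, integrin chains that bind collagen, met the acetylation rule (11.5% of all genes), and Itga11 was at 85.9% at day 35 and 37.5% at day 3 for H3K27Ac. Of 8 degradation genes, Mmp8, Mmp13 and Ctsk met it (11.5% of all genes), with Ctsk (cathepsin K, a collagenase best known from osteoclasts) at 81.7% at day 35 and 35.2% at day 3. Mmp13, a collagenase of bone, was at 53.6% at day 35 and 21.3% at day 3, with a 1,25D3-only VDR site nearby. Of the 4 haematopoietic markers, Csf1r was at 19.5% at day 35 and 6.46% at day 3, Sfpi1 (Spi1) at 45.5% at day 35 and 11.8% at day 3, Cd68 at 95.5% at day 35 and 100% at day 3 and the defining marker Ptprc (CD45) at 2.50% at day 35 and 1.75% at day 3. Their part in the values of Ctsk was not tested.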

How the data were processed

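ChIP-seq lists of called regions in IDG-SW3 cells were used, 26 lists from 28 samples, and the 2 inputs were not used here. Besides coordinates, the deposited lists hold the authors' peak score, whose scale is not stated. Bowtie, HOMER and the mm9 build are named per the submitters' processing notes, without settings, and lists were deposited per library. Groups, days and doses came from the labels.

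Genes came from GENCODE M1 on NCBIM37 (mm9), and coordinates are 1-based. Coverage was the percent of a gene body and its 5 kb flanks under called regions. The acetylation rule asked for over 10 percentage points in H3K27Ac with H3K9Ac and H4K5Ac in the same direction. A consensus site was a peak of 1 replicate overlapping one of the other by at least 1 bp, merged, and a gene was counted within 50 kb of its body. Sequences were 200 bases at site centres. Numbers of peaks per library were tested on the log2 scale by exact permutation of the arms (two-sided). Python 3.11.15, NumPy 2.4.6 and pysam 0.24.0 were used, and functions were tested on simulated regions. The replicate numbers of the arms are only labels, and the pairing check is with the alternatives.

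The members and gene lists were chosen with earlier results of these data known. Named members were those meeting the acetylation rule, those with a VDR site in either arm within 50 kb, the 5 with most RXR sites with 1,25D3 (the fifth place was tied), those with an H3K9me3 or H3K36me3 difference over 30 points, and Col1a1, Col1a2, Col2a1, Col3a1, Col5a1, Col5a2, Col10a1, Col11a1, Col12a1, Col4a1, Col4a2 and Col6a1. Other members that are named were chosen after their values were seen. Mia3 matched no gene of the annotation, and the longer of 2 Runx2 models was used. Alternatives were other flanks, windows, overlaps, thresholds and list lengths.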

Additional observations from a re-analysis of the deposited data

How the results depend on the processing

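Over 67 alternatives of 10 results, 14 moved and 1 reversed. The other 52 gave a count within 1.5 times or kept the direction of the difference, which does not mean the same genes or the same size. With 2 kb each side of the start in place of the gene body, the acetylation rule gave 5 higher and 4 lower collagen genes, the H3K27Ac median difference was 0, and H3K36me3 was higher in 2 and lower in 10. With a threshold of 20 points, 6 genes were higher and 0 lower in acetylation, and 1 was lower in H3K36me3. With a flank of 20 kb, 0 were lower in acetylation, 2 were lower in H3K36me3, and the H3K27Ac median was 5.80, while 11 genes were higher in acetylation, of which 8 were shared with the original 11 (Col6a1, Col13a1 and Col16a1 were lost). With the higher-scoring 50% of each list, 0 were lower in acetylation and 3 higher in H3K36me3, and Col11a1 and Col20a1 no longer met the acetylation rule. Without flanks, Col20a1 was lost from it, and Col3a1 from the genes lower in H3K36me3. With equal covered length the H3K27Ac median was 0.750 and 9 of the 11 genes stayed (Col15a1 and Col20a1 were lost). The cause of these differences was not tested. For these coverage alternatives, the share of all genes was counted only for the acetylation rule at 20 points. The other counts describe the collagen genes alone. With an equal number of peaks per list, the VDR ratio was 0.667 (exact permutation p = 0.33) and the RXR ratio was 1.03 (exact permutation p = 1.00), against 1.53 for the full lists.

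Without 1 replicate, collagen genes near VDR sites with 1,25D3 stayed at 7, those near RXR sites ranged from 26 to 30 with 1,25D3 and from 22 to 29 with vehicle, and the peak ratios ranged from 2.00 to 3.00 for VDR and were 1.53 for RXR. The shares of all genes without replicate 1 and without replicate 2 were 12.3% and 14.0% for VDR with 1,25D3. For RXR they were 34.9% and 42.1% with 1,25D3 and 22.2% and 31.8% with vehicle. These counts and ratios use 1 library per arm, with no test. The labels give equal replicate numbers and no shared source. With the replicate block, ratios were 2.45 and 1.53 with an exact permutation p of 0.5 for each, the smallest possible. Deviations of same-numbered libraries had r = 0.31 over 281 VDR sites and 0.18 over 3434 RXR sites, from 2 pairs, which do not establish pairing. Day differences rest on 1 library per mark, and the sources used here give no depth.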
